A study of Mus musculus with 12 samples.

Results

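The effect of *Hira* loss that E11.5 and E12.5 mouse hearts had in common was measured by comparing all 6 mutant libraries with all 6 Cre control libraries, with embryonic day as a covariate. The 12 libraries are all of the 12 in the series. HIRA is the histone chaperone that places the histone variant H3.3 into chromatin outside DNA replication, together with its partners ubinuclein and CABIN1, and human *HIRA* lies in the interval deleted in DiGeorge syndrome, in which heart defects are frequent. In the embryonic heart, cardiomyocytes form the myocardium, endocardial cells line it and give rise to the cushion mesenchyme of valves and septa, and resident macrophages arrive from blood-forming tissues.

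Mutant hearts were *Mesp1Cre;Hira-/fl* and control hearts *Mesp1Cre;Hira+/fl*, both of the CD1 strain, with 3 libraries of each genotype at embryonic day 11.5 and 3 at 12.5. *Mesp1Cre* is active in early mesoderm, so heart cells of other origins, such as neural crest, keep their floxed allele. Control hearts carry the Cre as well and lose 1 of their 2 alleles in the same lineage, and the mutants have a constitutive null allele in every cell. The sources used here do not say how many hearts entered a library or whether replicates came from separate litters, so p-values measure the spread between these libraries.

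The total gene count of a library lay between 11994148 and 17483982. Levels below are CPM, a gene's counts per 1000000 counts of the library with library sizes scaled by TMM, and each is given as the lowest, the median and the highest of 6 libraries. Libraries with at least 100 counts of Y-linked genes were called male, which a pool of both sexes would be too. These were 4 of the 6 control and 2 of the 6 mutant libraries, with all 3 control libraries at E11.5. Sex and genotype thus overlap in part. The third E11.5 mutant library was the shallowest and had the lowest mean correlation with its own group (Pearson r of log2 CPM over genes 0.972). *Hira* itself, on chromosome 16 from 18877037 to 18970309 (mm10), ran from 60.9 to 86.0 CPM (median 78.5) in controls and from 56.7 to 80.5 (median 71.3) in mutants. The ranges overlapped, with a log2 fold change of -0.13 ± 0.10 (SE) at an edgeR adjusted p of 0.528. The values are per gene and not per exon, so they do not test the loss of the floxed part.

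In mutant hearts, some genes of skeletal muscle, neurons and low oxygen were among those that rose. Genes of macrophages, cushion mesenchyme and matrix were among those that fell, and genes of ion channels and vessel lining among both. Of 12270 genes tested, 395 were changed, which is 3.22%, where a changed gene had an adjusted p of at most 0.05 in edgeR's quasi-likelihood test and a fold change of at least 1.5. Of these, 227 were higher in mutants (1.85% of genes tested) and 168 lower (1.37%). Without the fold threshold 840 genes (6.85%) passed, and 2380 genes (19.4%) had an unadjusted p under 0.05.

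Most of the changes were of moderate size. The median fold was 1.89 among genes that rose and 1.84 among those that fell. A change of 2-fold or more was seen for 91 genes that rose and 65 that fell, and one of 4-fold or more for 13 and 1. For 300 of the 395 changed genes (75.9%), mutant and control libraries did not overlap at either stage, in the direction of the change. This separation was found for 801 of all genes tested (6.53%), and 412 genes (3.36%), 190 of them changed, had all 6 mutant libraries beyond all 6 controls. Changed genes were mostly of low level: their median RPKM (CPM per kilobase of gene) was 2.41 for those that rose and 2.63 for those that fell, against 11.5 for all genes tested. When genes were ranked by level into 5 equal groups, 8.96% of the lowest group and 0.652% of the highest were changed.

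**Figure D1:**
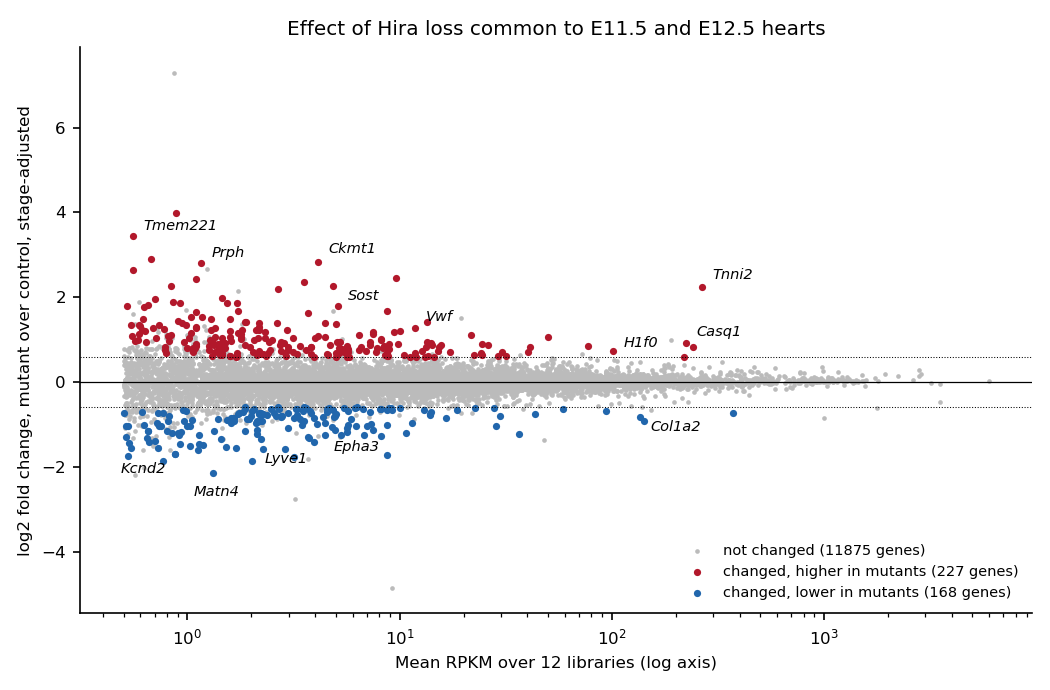
Stage-adjusted log2 fold change of mutant over control against the mean RPKM of 12 libraries (log axis), 1 point per gene tested; dotted lines mark a fold of 1.5. Red points are the 227 genes that rose and blue points the 168 that fell, and most of them lie at low levels, with *Tnni2* apart at a log2 fold change of 2.24 and a mean RPKM of 266.

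*Tnni2*, *Acta1* and *Casq1* of the skeletal muscle list rose, and *Tnnt1* of that list fell. *Tnni2*, the fast skeletal muscle isoform of troponin I, lies on chromosome 7 from 142441808 to 142444410 (mm10). It ran from 44.5 to 101 CPM (median 55.0) in control and from 195 to 368 (median 321) in mutant libraries. All 6 mutant libraries were above all 6 controls. The rise was 4.71-fold, with a log2 fold change of 2.24 ± 0.22 (SE) at an edgeR adjusted p of 1.04e-04.

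Further contractile genes of the skeletal muscle list rose with it. *Acta1*, skeletal muscle alpha-actin, ran from 159 to 351 CPM (median 263) in controls and from 291 to 559 (median 466) in mutants. The pooled ranges overlapped, while within each stage the mutants were all higher, and the log2 fold change was 0.84 ± 0.15 (SE; edgeR adjusted p = 0.00412). *Casq1*, the calcium-binding protein of the fast muscle sarcoplasmic reticulum, went from 212 to 407 CPM (median 264) in controls and from 456 to 714 (median 493) in mutants. No library overlapped, and its log2 fold change was 0.93 ± 0.18 (SE; edgeR adjusted p = 0.00878). *Tnnt1*, the slow skeletal isoform of troponin T, went the other way, from 236 to 636 CPM (median 402) in controls to between 162 and 333 (median 286) in mutants. The genotypes were apart at E12.5 and overlapped at E11.5, and the log2 fold change was -0.72 ± 0.15 (SE; edgeR adjusted p = 0.0127).

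*Tnnt3*, fast skeletal troponin T and the neighbour of *Tnni2*, was not called, with 2.89 to 21.0 CPM (median 10.4) in controls, 16.3 to 47.9 (median 32.5) in mutants and an edgeR adjusted p of 0.0523 at a log2 fold change of 1.52 ± 0.44 (SE). Of 13 skeletal muscle genes tested, 3 rose and 1 fell, 8 had a log2 fold change above 0, and the median was 0.18. The list has 20 genes, of which these 13 passed the limit of a mean RPKM of 0.5. The muscle regulators *Myod1*, *Myog*, *Myf5* and *Pax7* were all under that limit, at mean RPKM of 0.101, 0.412, 0.0173 and 0.0118. Of the 20 cardiac sarcomere genes tested, 0 rose and 0 fell, and their median log2 fold change was 0.02. Of 9 smooth muscle genes tested, 0 were called in each direction. Over all genes tested 3.22% were changed, and 0.652% in the highest of the 5 groups by level. A count of 0 in lists of this size is thus near the background.

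**Figure D2:**
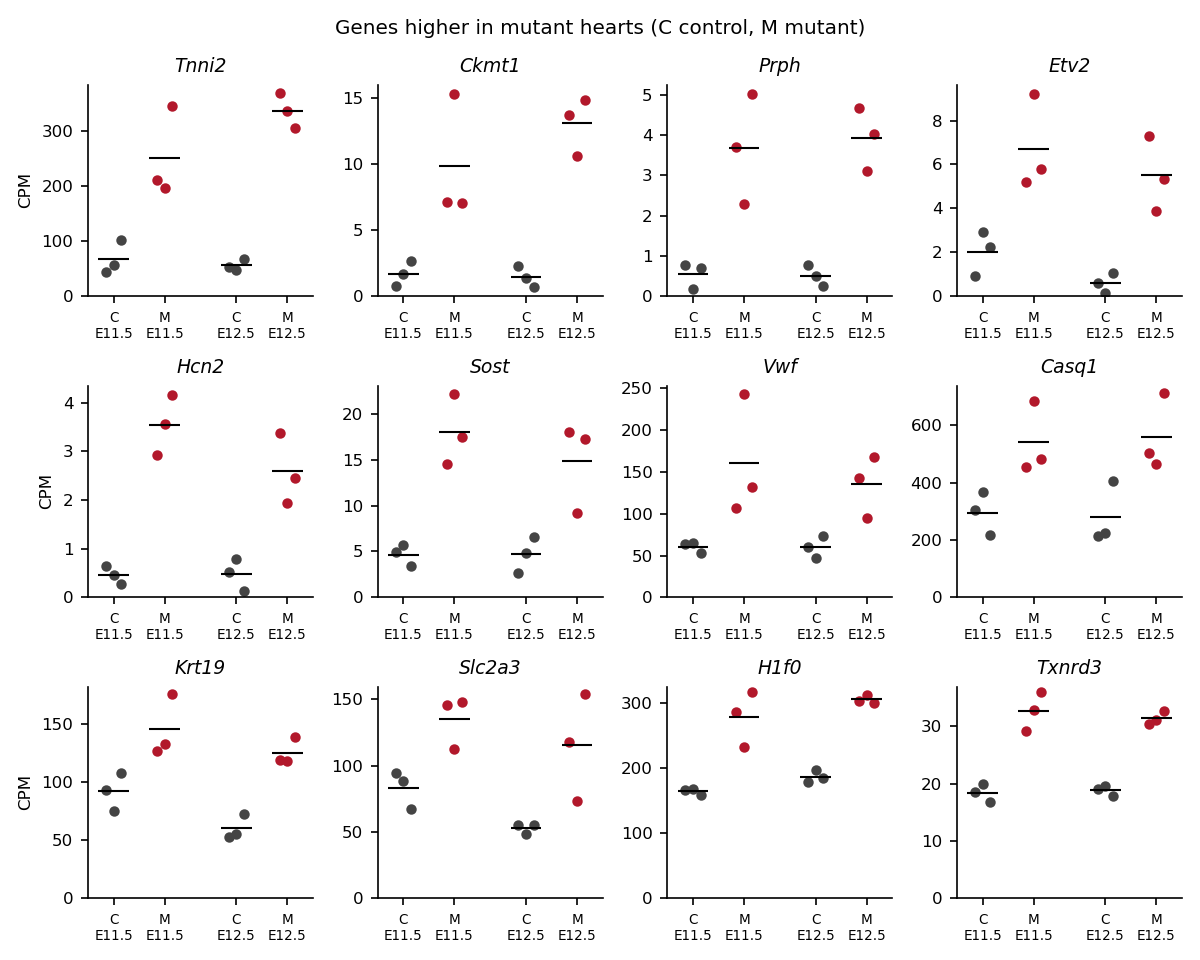
CPM of 12 genes in each library, with 3 libraries per stage and genotype and a bar at their mean; control points are grey and mutant points red. For *Tnni2*, *Ckmt1* and *Prph* every mutant point lies above every control point at both stages, and for *Slc2a3* the second E12.5 mutant, at 73.4 CPM, is the lowest of the mutants.

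Channels that move ions across the membrane changed in both directions. Of 33 ion channel and calcium handling genes tested, 2 rose and 3 fell, and the median log2 fold change was -0.04. *Hcn2*, a channel of the pacemaker current, ran from 0.123 to 0.785 CPM (median 0.487) in controls and from 1.94 to 4.15 (median 3.15) in mutants. The groups lay apart, with a log2 fold change of 2.65 ± 0.32 (SE; edgeR adjusted p = 4.00e-04). Control libraries held only 2 to 14 reads of *Hcn2*, so the size of its fold is uncertain. Its mean RPKM of 0.553 passed the limit of 0.5 only through the mutants. *Kcnd2* and *Kcnd3* encode the pore subunits Kv4.2 and Kv4.3 of the transient outward potassium current. *Kcnd2* fell from between 4.63 and 7.91 CPM (median 5.80) to between 1.04 and 3.50 (median 1.74), with no overlap and a log2 fold change of -1.70 ± 0.17 (SE; edgeR adjusted p = 1.26e-04). *Kcnd3* fell from between 3.01 and 9.79 CPM (median 6.84) to between 1.43 and 4.93 (median 2.93), a log2 fold change of -1.14 ± 0.19 (SE; edgeR adjusted p = 0.00375). For *Kcnd3* the pooled ranges overlapped but the libraries were apart within each stage. *Kcnd2*, *Kcnd3* and, below, *Scn7a* had mean RPKM of 0.870, 0.652 and 0.734. They passed the limit of 0.5 only through the controls, which shapes the count of falls.

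*Scn7a*, a sodium channel of the atypical Nax type, fell without overlap from between 5.41 and 9.20 CPM (median 7.30) to between 2.57 and 4.41 (median 3.45; log2 fold change -1.02 ± 0.17, SE; edgeR adjusted p = 0.00346). *Kcnj2*, the inward rectifier Kir2.1, rose by just over the fold threshold (log2 fold change 0.59 ± 0.08, SE). Its call was lost without the third E11.5 control (0.57), the second E12.5 control (0.58), the third E12.5 control (0.56) or the first E12.5 mutant (0.55 on the log2 scale), where the fold was under 1.5.

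Creatine kinases buffer ATP by storing phosphate on creatine. *Ckmt1*, the ubiquitous mitochondrial creatine kinase, was the largest rise among genes of at least 1 RPKM with separated libraries, from between 0.740 and 2.66 CPM (median 1.53) to between 7.09 and 15.3 (median 12.2). All mutants were above all controls, and the rise was 7.18-fold (log2 fold change 2.84 ± 0.31, SE; edgeR adjusted p = 2.05e-04). *Ckmt2*, its sarcomeric relative, went from between 3.08 and 8.02 CPM (median 4.90) to between 5.77 and 14.1 (median 9.47) with overlap (log2 fold change 0.95 ± 0.22, SE; edgeR adjusted p = 0.0210). That call was lost without the first E12.5 control (0.89), the second E12.5 control (0.86) or the first E12.5 mutant (0.88 on the log2 scale). *Gamt*, which makes creatine, fell (log2 fold change -0.61 ± 0.11, SE; edgeR adjusted p = 0.00609), with calls lost without the second E11.5 control (-0.57) or the first E11.5 mutant (-0.51). In all, 2 of the 6 genes of this pathway rose and 1 fell.

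Some genes of the vessel lining rose and others fell. Among 22 endocardial and endothelial markers tested, 3 rose and 0 fell, 19 had a log2 fold change above 0, and their median was 0.26 against 0.00 over all genes tested. The summed level of the list ran from 1802 to 2324 CPM in controls and from 2221 to 3084 in mutants, which overlap. *Vwf*, the von Willebrand factor of endothelial cells, ran from 47.1 to 72.8 CPM (median 62.1) in controls and from 94.7 to 244 (median 137) in mutants. It did not overlap, and its log2 fold change was 1.29 ± 0.20 (SE; edgeR adjusted p = 0.00182). *Etv2*, the ETS factor that specifies endothelial and blood progenitors early in development, ran from 0.168 to 2.95 CPM (median 0.981) in controls and from 3.88 to 9.19 (median 5.57) in mutants. The groups were apart, at a log2 fold change of 2.35 ± 0.39 (SE; edgeR adjusted p = 0.00290).

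*Procr*, the endothelial protein C receptor, rose from between 12.2 and 16.4 CPM (median 12.9) to between 23.2 and 34.2 (median 25.0), and *Foxc2*, a forkhead factor of lymphatic and valve development, from between 13.6 and 20.1 (median 16.7) to between 26.0 and 41.9 (median 31.8). Neither overlapped. Their log2 fold changes were 0.96 ± 0.09 (SE) and 0.91 ± 0.12 (SE), with edgeR adjusted p of 1.04e-04 and 5.95e-04. *Nfatc1*, a factor of the endocardium and its valves, reached a log2 fold change of 0.61 ± 0.12 (SE; edgeR adjusted p = 0.00878), and was under the fold threshold without the third E11.5 control (0.54), the third E11.5 mutant (0.56) or the first E12.5 mutant (0.52). *Lyve1*, a hyaluronan receptor of lymphatic endothelium and of some macrophages, fell without overlap from between 3.46 and 14.5 CPM (median 7.47) to between 0.713 and 2.91 (median 2.41; log2 fold change -1.84 ± 0.27, SE; edgeR adjusted p = 0.00148). Among the 9 lymphatic markers tested it was the only fall, beside the rise of *Foxc2*. *Aplnr*, the apelin receptor of venous endothelium, fell from between 3.33 and 16.8 CPM (median 8.79) to between 1.30 and 6.08 (median 3.01), apart within each stage (log2 fold change -1.54 ± 0.24, SE; edgeR adjusted p = 0.00222). The endothelial genes *Esm1* and *Robo4*, named after their values were seen, fell too, with log2 fold changes of -1.74 and -0.96 and edgeR adjusted p of 0.0188 and 0.00850. At a mean RPKM of 0.527, *Esm1* passed the limit on mean RPKM only through the controls. The endothelial genes *Gja4*, *Clec14a*, *Mmrn1* and *Tmem100*, also outside the lists and also named after their values were seen, were changed and rose. In bulk libraries, fewer cells of a type and less RNA per cell cannot be told apart, here and for each group of markers below.

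Some neuronal genes at low levels rose. Of 12 neural crest and neuron markers tested, 4 rose and 0 fell, 9 had a log2 fold change above 0, and the median was 0.26. *Prph*, the peripheral neuron filament peripherin, ran from 0.192 to 0.789 CPM (median 0.603) in controls and from 2.30 to 5.02 (median 3.86) in mutants. *Sncb*, beta-synuclein, ran from 0.0657 to 0.617 (median 0.499) and from 0.665 to 4.58 (median 2.13). Neither gene overlapped, at log2 fold changes of 2.81 ± 0.32 (SE) and 2.43 ± 0.48 (SE) and edgeR adjusted p of 2.41e-04 and 0.00826. Control libraries held only 3 to 12 reads of *Prph* and 1 to 10 of *Sncb*. Both genes passed the limit of a mean RPKM of 0.5 only through the mutants, which shapes the count of rises. *Stmn2*, a microtubule regulator of growing axons, ran from 5.05 to 15.7 CPM (median 6.35) and from 15 to 31.0 (median 27.9), with overlap at E11.5 (log2 fold change 1.67 ± 0.27, SE; edgeR adjusted p = 0.00271). *Tubb3*, neuronal beta-tubulin, reached a log2 fold change of 1.15 ± 0.20 (SE; edgeR adjusted p = 0.00412). The lineage markers *Sox10* and *Foxd3* were under the limit on low values, at mean RPKM of 0.147 and 0.0368, and *Phox2a* and *Th* were not called. The summed level of the list overlapped, with 160 to 173 CPM in controls and 165 to 266 in mutants.

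Every gene of the glycolysis and hypoxia list had a log2 fold change above 0. Of the 25 tested, 4 rose by 1.5-fold or more, 11 had an edgeR adjusted p of at most 0.05, and the median log2 fold change was 0.30. The summed level of the list ran from 12596 to 15530 CPM in controls and from 14913 to 20558 in mutants, which overlap. *Slc2a3*, the glucose transporter GLUT3, ran from 48.6 to 94.7 CPM (median 61.4) in controls and from 73.4 to 154 (median 132) in mutants. It was apart within each stage, with a log2 fold change of 0.90 ± 0.16 (SE; edgeR adjusted p = 0.00419). *Slc2a1*, the transporter GLUT1, went from between 338 and 605 CPM (median 437) to between 414 and 826 (median 740; log2 fold change 0.60 ± 0.10, SE). *Egln3*, an oxygen-sensing prolyl hydroxylase that is itself induced by low oxygen, reached a log2 fold change of 0.63 ± 0.13 (SE), and the vasodilator peptide adrenomedullin, *Adm*, one of 0.78 ± 0.18 (SE). Their edgeR adjusted p were 0.00323, 0.0118 and 0.0210 in that order. Each of these last 3 calls was lost on omitting 3 of the 12 libraries one at a time, with log2 fold changes of 0.50 to 0.66 for *Slc2a1*, 0.55 to 0.70 for *Egln3* and 0.67 to 0.89 for *Adm*. *Slc2a1* fell under the fold threshold without the first E11.5 control, the second E12.5 control or the third E12.5 mutant, and *Egln3* without the third E11.5 mutant, the first E12.5 control or the first E12.5 mutant. *Adm* kept its fold but had an edgeR adjusted p of 0.0556 without the first E12.5 control, 0.0552 without the first E12.5 mutant and 0.0520 without the third E12.5 mutant.

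*Ramp1*, which joins the calcitonin receptor-like receptor to make a receptor for CGRP, fell from between 13.8 and 22 CPM (median 17.0) to between 6.87 and 11.9 (median 8.91). The groups lay apart, with a log2 fold change of -0.96 ± 0.10 (SE; edgeR adjusted p = 1.59e-04). The level in mutants was 1.95-fold lower.

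Some cushion mesenchyme genes fell. Of 24 markers tested, 5 fell and 0 rose, only 3 had a log2 fold change above 0, and the median was -0.25. The list summed to between 2011 and 2684 CPM in controls and between 1839 and 2377 in mutants. *Epha3*, a receptor tyrosine kinase of the atrioventricular cushions, lies on chromosome 16 from 63543538 to 63864158 (mm10). It fell from between 17.5 and 31.7 CPM (median 24.2) to between 6.48 and 15 (median 11.5), without overlap, at a log2 fold change of -1.23 ± 0.14 (SE) at an edgeR adjusted p of 2.19e-04. *Itga8*, an integrin alpha subunit, fell from between 34.2 and 56.3 CPM (median 41.2) to between 12.8 and 31.2 (median 20.2). Those libraries were apart too, with a log2 fold change of -1.08 ± 0.12 (SE; edgeR adjusted p = 1.78e-04).

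*Fmod*, the collagen-binding proteoglycan fibromodulin, fell from between 23.2 and 44.2 CPM (median 32.1) to between 10.5 and 15.7 (median 14), and *Dcn*, decorin, from between 90.7 and 129 (median 117) to between 41.9 and 88.7 (median 70.3). Neither overlapped, with log2 fold changes of -1.26 ± 0.14 (SE) and -0.74 ± 0.15 (SE) and edgeR adjusted p of 1.80e-04 and 0.00938. *Lum*, lumican, which lies next to *Dcn*, reached a log2 fold change of -0.79 ± 0.20 (SE; edgeR adjusted p = 0.0308) and lost its call in 9 of 12 omissions of a single library, in which the value ran from -0.93 to -0.62. *Postn*, periostin, the gene of the list with the highest level, ran from 454 to 628 CPM (median 555) and from 217 to 502 (median 378) and was just short of the call (log2 fold change -0.58 ± 0.17, SE; edgeR adjusted p = 0.0536).

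**Figure D3:**
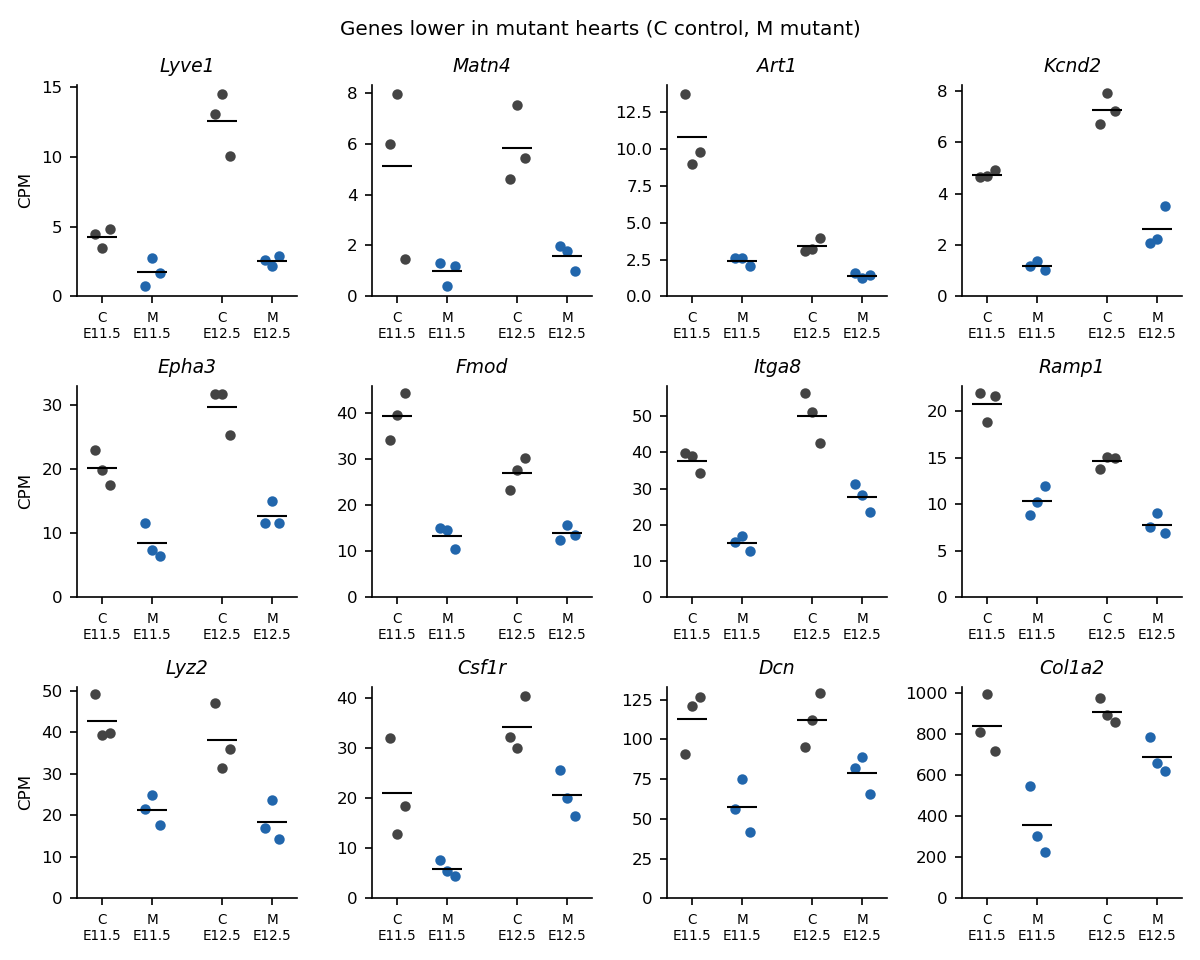
CPM of 12 genes in each library, with 3 libraries per stage and genotype and a bar at their mean; control points are grey and mutant points blue. In *Epha3*, *Fmod*, *Itga8* and *Ramp1* all mutant points lie below all control points, while the controls themselves differ between stages, as in *Lyve1* and *Art1*.

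Of 33 collagen and matrix genes tested, 4 fell and 0 rose, with a median log2 fold change of -0.29. *Matn4*, the matrix protein matrilin-4, was the largest fall, from between 1.47 and 7.95 CPM (median 5.71) to between 0.423 and 1.96 (median 1.25). The mutants were lower than the controls within each stage, and the fall was 4.39-fold (log2 fold change -2.13 ± 0.37, SE; edgeR adjusted p = 0.00412). *Col8a1*, a short-chain collagen of vessels and valves, fell without overlap from between 8.64 and 14.1 CPM (median 10.5) to between 4.50 and 7.33 (median 5.13; log2 fold change -0.95 ± 0.15, SE; edgeR adjusted p = 0.00271). *Col1a2*, a chain of type I collagen, reached a log2 fold change of -0.81 ± 0.20 (SE; edgeR adjusted p = 0.0273) and lost its call without the first E11.5 control (-0.79), the second E11.5 control (-0.72), the second E11.5 mutant (-0.71) or the third E12.5 mutant (-0.82). *Col14a1* was close to the fold threshold (log2 fold change -0.61 ± 0.11, SE), and fell under it without the third E11.5 control, the first or second E12.5 control or the third E12.5 mutant, with values of -0.69 to -0.56 over the 12 such fits. Outside the list, *Lamc3*, the laminin gamma-3 chain, fell from between 5.26 and 19.5 CPM (median 7.49) to between 2.0 and 5.97 (median 2.60; log2 fold change -1.60 ± 0.24, SE; edgeR adjusted p = 0.00189).

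*Sparc*, a collagen-binding glycoprotein and the gene of this list with the highest level, moved little but evenly, from between 1054 and 1177 CPM (median 1124) to between 878 and 974 (median 904). The groups were apart, at a log2 fold change of -0.29 ± 0.05 (SE; edgeR adjusted p = 0.00590), under the fold threshold. GAGA-rich DNA was reported by the study at sites bound by HIRA, most of them distal intergenic or intronic. Here only promoters were searched for the letters GAGAGAGA, on both strands, which does not test those sites. The window of *Sparc*, chr11:55420031-55420330 on the minus strand (GRCm38.p6, RefSeq, 250 bases before the start to 50 after), is shown because it holds them 5 times in overlapping frames, all on the opposite strand and in capitals.
Sparc: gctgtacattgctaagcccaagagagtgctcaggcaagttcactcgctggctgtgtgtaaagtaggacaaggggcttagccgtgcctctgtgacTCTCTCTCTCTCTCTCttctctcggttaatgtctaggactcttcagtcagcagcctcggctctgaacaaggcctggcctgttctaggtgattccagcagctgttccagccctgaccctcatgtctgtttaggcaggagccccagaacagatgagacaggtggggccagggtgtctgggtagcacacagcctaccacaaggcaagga

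Macrophage genes fell together. Of 16 macrophage and leukocyte markers tested, 8 fell and 0 rose, 0 had a log2 fold change above 0, and the median was -1.21, against 0.00 over all genes tested. Their summed level ran from 119 to 223 CPM in controls and from 71.4 to 129 in mutants, so the pooled ranges overlapped. *Lyz2*, lysozyme M of myeloid cells, fell from between 31.4 and 49.2 CPM (median 39.5) to between 14.3 and 25.0 (median 19.6), without overlap (log2 fold change -1.03 ± 0.14, SE; edgeR adjusted p = 7.37e-04). *Mrc1*, the mannose receptor of tissue macrophages, fell from between 6.22 and 33.9 CPM (median 24.9) to between 2.42 and 15.5 (median 7.0; log2 fold change -1.57 ± 0.26, SE; edgeR adjusted p = 0.00329). *Csf1r*, the receptor for the macrophage growth factor CSF1, fell from between 12.9 and 40.6 CPM (median 31.1) to between 4.50 and 25.6 (median 12.0; log2 fold change -1.23 ± 0.25, SE; edgeR adjusted p = 0.00974). For *Mrc1* and *Csf1r* the libraries were apart within each stage.

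The same held for *Emr1*, the gene of the F4/80 antigen, and for the fractalkine receptor *Cx3cr1*, with log2 fold changes of -1.49 ± 0.31 (SE) and -1.33 ± 0.31 (SE) and edgeR adjusted p of 0.0121 and 0.0207. *Fcgr3*, an Fc receptor, was close to the threshold (edgeR adjusted p = 0.0423) and lost its call in 10 of 12 omissions of a single library, with log2 fold changes of -1.64 to -1.20. *Pf4*, which platelets and megakaryocytes also make, ran from 8.75 to 51.3 CPM and from 7.0 to 56.9 and was not called (log2 fold change -0.12 ± 0.31, SE; edgeR adjusted p = 0.904). Outside the list, *Ctss*, a lysosomal protease of antigen-presenting cells, fell with a log2 fold change of -1.41 ± 0.28 (SE; edgeR adjusted p = 0.00883). *F13a1*, coagulation factor XIII of macrophages and platelets, fell with -1.33 ± 0.26 (SE; edgeR adjusted p = 0.00808), and *Ms4a6c* with -1.49 ± 0.35 (SE; edgeR adjusted p = 0.0217), the last lost without the third E12.5 control (-1.37) or the second E12.5 mutant (-1.39). *Fcrls* fell with a log2 fold change of -1.56 ± 0.41 (SE; edgeR adjusted p = 0.0372), and its call was lost in 9 of 12 omissions of a single library, in which it ran from -1.74 to -1.30. Fitted with no stage term, the calls of *Mrc1* (-1.46), *Csf1r* (-1.05), *Emr1* (-1.34), *Cx3cr1* (-1.20), *Ctss* (-1.23) and *F13a1* (-1.27 on the log2 scale) were lost. With sex as a term the calls of *Fcgr3* and *Fcrls* were lost, each at a log2 fold change of -1.36. The erythroid list, of 20 genes tested, had 0 calls in each direction and a median of -0.17. That median joined unlike stages. The list's median difference from the stage's controls ran from -0.11 to 0.63 in the E11.5 mutants. In the E12.5 mutants it ran from -0.98 to -0.50 on the log2 scale.

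The promoter of *Lyz2* is shown because it holds TNAAGTG, the core of the element that NKX2-5 binds, where N is any base. Both strands were searched. These letters stood in 11.5% of all promoter windows, and binding of NKX2-5 to this one was not tested. The window is chr10:117282223-117282522 on the minus strand (GRCm38.p6, RefSeq) with the match in capitals, starting 130 bases before the transcript start.
Lyz2: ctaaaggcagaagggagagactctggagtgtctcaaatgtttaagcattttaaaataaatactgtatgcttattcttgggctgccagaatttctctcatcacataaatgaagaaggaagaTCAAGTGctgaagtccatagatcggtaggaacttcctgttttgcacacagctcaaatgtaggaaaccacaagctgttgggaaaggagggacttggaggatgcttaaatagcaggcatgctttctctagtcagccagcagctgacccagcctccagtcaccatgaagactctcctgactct

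Shares of promoters with such letters were counted over the changed genes. RefSeq windows were matched by symbol for 162 of the 227 genes that rose (209 windows) and 116 of the 168 that fell (158 windows). GAGAGAGA stood in 1.91% of windows of genes that rose and 3.16% of those that fell, against 3.21% over the genes tested and 3.93% of all 32851 windows. TNAAGTG stood in 14.8% and 12.7%, against 8.57% over the genes tested and 11.5% of all windows. ACGTG, the core of the element bound by hypoxia-inducible factors, stood in 23.0% and 13.3%, against 25.1% over the genes tested and 19.6% of all windows. The median number of CpG dinucleotides per window was 15 in genes that rose, 11 in those that fell and 20 over the genes tested. Windows with under 5 CpG were 16.3%, 20.9% and 9.40%, and the *Lyz2* window had 1. No test was made of these shares.

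Single members of signalling pathways were changed. Among 25 Wnt genes tested, 1 rose and 2 fell, with a median log2 fold change of -0.25. *Sost*, the secreted Wnt antagonist sclerostin best known from bone, lies on chromosome 11 from 101962458 to 101967015 (mm10). It ran from 2.69 to 6.60 CPM (median 4.86) in controls and from 9.23 to 22.1 (median 17.4) in mutants. All mutants were higher, at 3.48-fold (log2 fold change 1.80 ± 0.23, SE; edgeR adjusted p = 5.09e-04). *Notum*, an enzyme that inactivates Wnt proteins, fell from between 2.03 and 7.29 CPM (median 4.30) to between 0.484 and 3.04 (median 1.5; log2 fold change -1.53 ± 0.34, SE; edgeR adjusted p = 0.0159), and *Wnt5b* was near both thresholds and lost its call in 11 of 12 omissions of a single library, with log2 fold changes of -0.70 to -0.49.

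Of 28 BMP and TGF-beta genes tested, 2 fell and 0 rose. They were the type I receptor *Bmpr1b*, from between 4.40 and 7.63 CPM (median 5.23) to between 0.519 and 3.70 (median 2.15), and the BMP signal transducer *Smad9*, from between 8.08 and 13.7 (median 12.0) to between 4.75 and 10.1 (median 7.20). *Bmpr1b* did not overlap and *Smad9* was apart within each stage, at log2 fold changes of -1.38 ± 0.30 (SE) and -0.72 ± 0.15 (SE) and edgeR adjusted p of 0.0148 and 0.0101. At a mean RPKM of 0.705, *Bmpr1b* passed the limit of 0.5 only through the controls. Of 14 neuregulin, natriuretic peptide and trabecular genes, the natriuretic peptide receptor *Npr1* fell (log2 fold change -0.65 ± 0.14, SE; edgeR adjusted p = 0.0150), a call lost without the third E12.5 mutant (-0.57). The Notch pathway (14 genes tested) and the retinoic acid pathway (12 genes) had 0 calls. The retinoic acid list summed to 269 to 317 CPM in E11.5 mutants, below the 363 to 438 of their controls. At E12.5 it summed to 344 to 352 CPM in mutants, above the 290 to 340 of controls, so the common fit joined opposite stages. Outside the lists, *Fgfr3*, a receptor for fibroblast growth factors, fell from between 12.4 and 16.3 CPM (median 14.3) to between 6.17 and 10.04 (median 8.55; log2 fold change -0.79 ± 0.13, SE; edgeR adjusted p = 0.00222), and *Flrt2*, a receptor of the epicardium and of guidance cues, from between 96.8 and 123 (median 111) to between 50.6 and 93.3 (median 70.7; log2 fold change -0.65 ± 0.11, SE; edgeR adjusted p = 0.00290), both without overlap. The call of *Flrt2* was lost without the third E11.5 mutant, at -0.58.

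Many groups of genes did not reach a call. The count was 0 in each direction for 24 cardiac transcription factors, 29 cell cycle genes, 20 p53 targets and cell cycle inhibitors, 20 imprinted genes, 14 interferon-stimulated genes and 3 germ cell genes tested. Over all genes tested 3.22% were changed, a share at which lists of these sizes would hold few calls or none. The counts of 0, here and in the other short lists, are thus near the background. The medians of these lists lay between -0.06 and 0.12 on the log2 scale. Among p53 targets and inhibitors, 5 had higher and 1 lower levels at an edgeR adjusted p of at most 0.05 with folds under 1.5, among them the imprinted inhibitor *Cdkn1c*, at 638 to 971 CPM in controls and 890 to 1273 in mutants (log2 fold change 0.37 ± 0.08, SE; edgeR adjusted p = 0.0106). Among transcription factors, *Gata5* was just under the fold threshold, with 41.0 to 66.2 CPM (median 46.3) in controls, 62.4 to 94.3 (median 70.8) in mutants and a log2 fold change of 0.58 ± 0.08 (SE; edgeR adjusted p = 0.00105). Among 17 epicardial and mesothelial markers, the simple keratins *Krt8* and *Krt19* rose and 0 fell, at a median of -0.17. That median joined opposite stages, since the list's median difference from the stage's controls ran from -0.80 to -0.31 in the E11.5 mutants and from 0.21 to 0.37 in the E12.5 mutants on the log2 scale. *Krt19* ran from 52.5 to 108 CPM (median 74.1) and from 119 to 177 (median 130), with no overlap (log2 fold change 0.86 ± 0.12, SE; edgeR adjusted p = 0.00140).

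**Figure D4:**
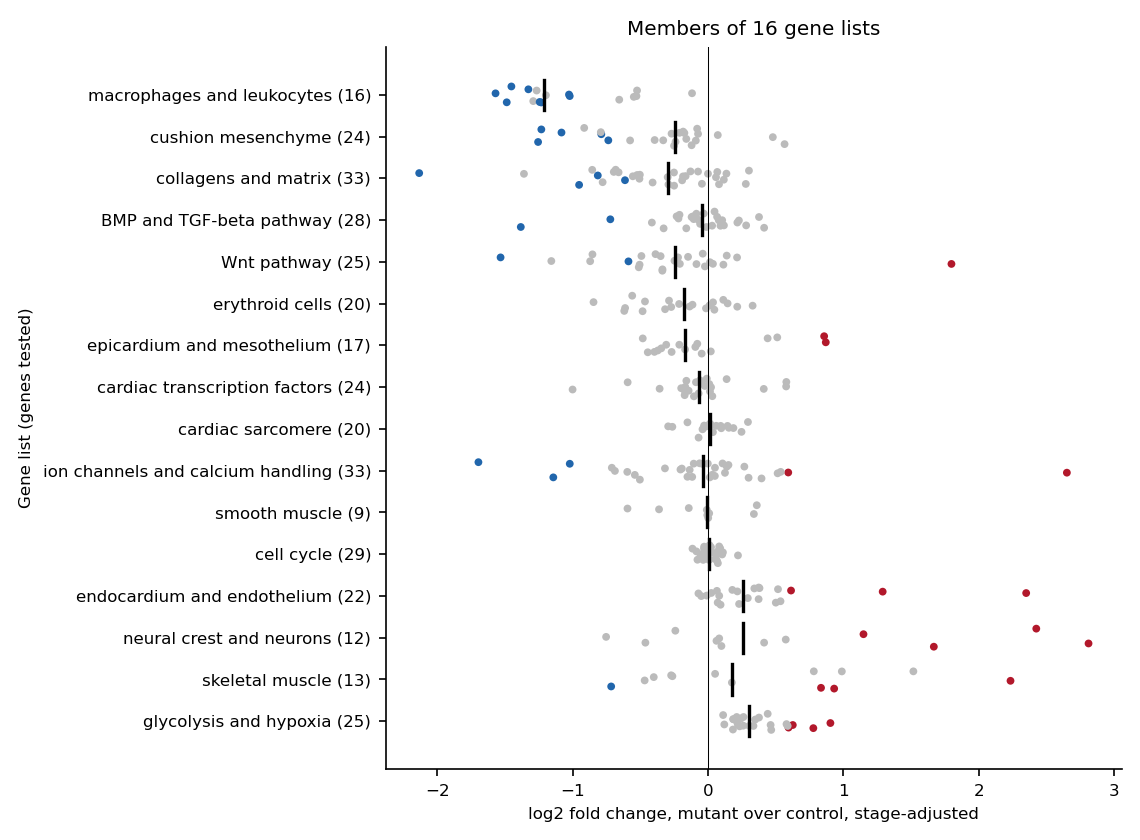
Stage-adjusted log2 fold changes of the members of 16 gene lists, 1 point per gene tested, with a black bar at the list's median; red and blue points are changed genes and the number tested stands beside each name. All 16 macrophage points lie left of 0 and all 25 glycolysis and hypoxia points right of it, while the 20 cardiac sarcomere and 29 cell cycle genes cluster at 0.

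Epithelial and liver markers differed between single libraries. Of 8 pharyngeal and lung epithelium markers tested, 1 rose, *Wfdc2*, from between 0.329 and 2.66 CPM (median 1.07) to between 2.78 and 12.0 (median 4.66), with no overlap (log2 fold change 2.27 ± 0.41, SE; edgeR adjusted p = 0.00474). The list summed to between 4.88 and 47.2 CPM (median 6.23) in controls and between 8.58 and 72.4 (median 17.5) in mutants. Of the 6 liver markers tested 1 rose, *Alb*, serum albumin, whose level was at most 0.897 CPM in controls and ran from 0.0865 to 18.7 (median 0.403) in mutants. A single E12.5 mutant library held most of it, and the call was lost in 9 of 12 omissions of a single library. Of the fatty acid metabolism list (20 tested), *Fabp4*, a fatty acid carrier of capillaries and macrophages, fell (log2 fold change -1.70 ± 0.41, SE; edgeR adjusted p = 0.0220) and lost its call without the second E12.5 control (-1.36) or the first E12.5 mutant (-1.72). The part of such markers in the other results was not tested.

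**Figure D5:**
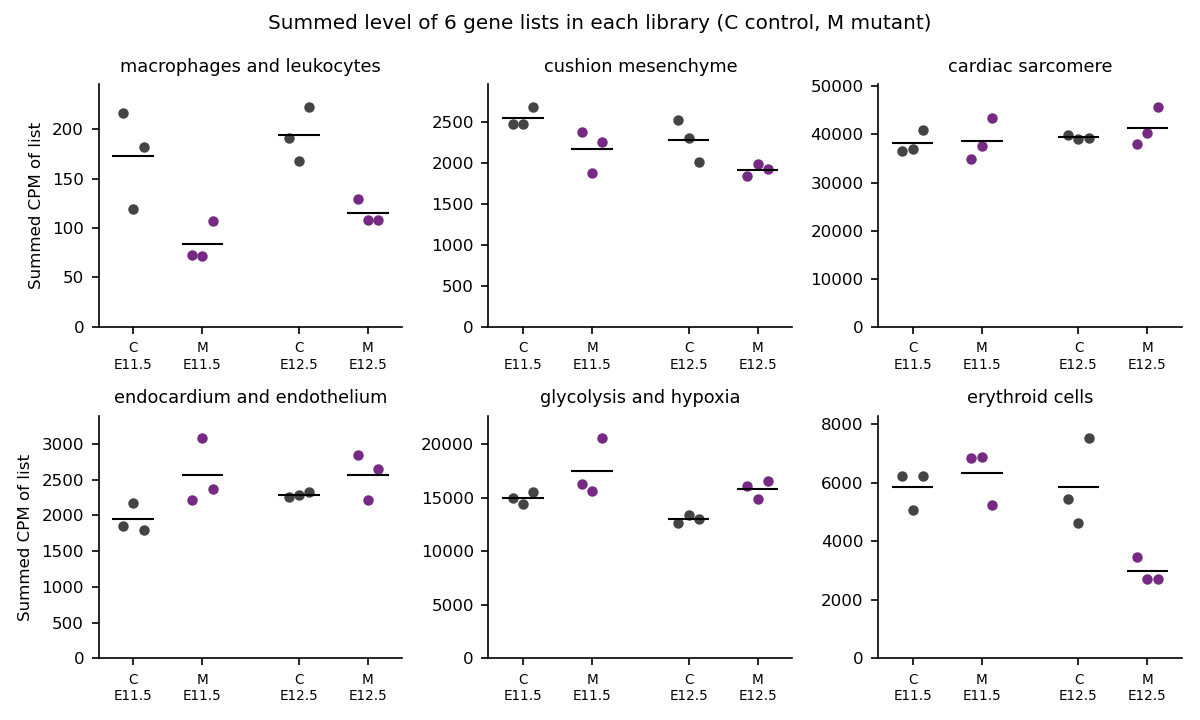
Summed CPM of 6 gene lists in each library, with 3 libraries per stage and genotype and a bar at their mean; control points are grey and mutant points purple. Macrophage markers sum to 119 to 223 CPM in controls and 71.4 to 129 in mutants, cardiac sarcomere genes overlap, and erythroid markers are low in the E12.5 mutants.

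The partners of HIRA and the genes of its histone moved little. Of 9 genes, 0 were called in each direction, and 8 had a log2 fold change above 0 with a median of 0.13. The ubinucleins *Ubn1* (0.01 ± 0.08, SE) and *Ubn2* (0.04 ± 0.15), *Cabin1* (0.07 ± 0.07) and the separate H3.3 chaperone *Daxx* (0.13 ± 0.07) were near 0 on the log2 scale. The histone donors *Asf1a* and *Asf1b* reached a log2 fold change ofs of 0.23 ± 0.08 and 0.24 ± 0.09 (SE), with edgeR adjusted p of 0.108 and 0.154. Of the H3.3 genes, *H3f3b* ran from 294 to 418 CPM (median 324) in controls and from 367 to 488 (median 422) in mutants, and *H3f3a* from 424 to 656 (median 492) and from 506 to 713 (median 556). Both overlapped, and *H3f3b* had an edgeR adjusted p of 0.0450 at a log2 fold change of 0.32 ± 0.09 (SE), under the fold threshold. *H1f0*, the linker histone H1.0 that is made outside S phase, did rise, from between 159 and 196 CPM (median 173) to between 232 and 317 (median 301). Its libraries were apart, at a log2 fold change of 0.74 ± 0.07 (SE) at an edgeR adjusted p of 1.04e-04. Of 19 replication-dependent histone genes tested, 0 were called.

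*H1f0* was among the genes with the lowest p, most of which had even and moderate changes at all 6 mutants. Besides *Tnni2* and *Procr* these included *Myo3b*, *Txnrd3*, *Ccdc19*, *Cdk18*, *Myzap* and *Akr1c13*. *Txnrd3*, a thioredoxin reductase, ran from 16.8 to 20.004 CPM (median 18.8) in controls and from 29.2 to 36 (median 31.9) in mutants (log2 fold change 0.78 ± 0.08, SE). *Myzap*, a protein of the intercalated discs that join cardiomyocytes, ran from 58.2 to 83.9 (median 67.8) and from 85.7 to 131 (median 117; log2 fold change 0.70 ± 0.07, SE). *Ccdc19* ran from 2.07 to 2.53 CPM and from 5.27 to 5.88, and *Cdk18*, a cyclin-dependent kinase of the PCTAIRE family, from 8.61 to 12.5 and from 19.7 to 21.2. In each of these the lowest mutant exceeded the highest control. *Myo3b*, an unconventional myosin with a kinase domain, rose by 1.03 ± 0.10 (SE) and *Akr1c13*, an aldo-keto reductase, by 2.19 ± 0.22 (SE) on the log2 scale. *Tnni2*, *Procr*, *H1f0* and these 6 genes shared an edgeR adjusted p of 1.04e-04.

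Further large rises were at low levels. *Defb7*, a beta-defensin, was at most 0.280 CPM in controls and at least 0.423 in mutants, *Mgst2*, a microsomal glutathione transferase, at most 0.592 and at least 0.941, and *Rpl3l*, the striated muscle form of a ribosomal protein, at most 1.47 and at least 1.93. *Hes7*, a clock gene of the somites, went from between 0.263 and 1.41 CPM (median 0.696) to between 1.82 and 3.32 (median 2.47), and *Prmt8*, an arginine methyltransferase of brain, from between 0.657 and 2.63 (median 1.37) to between 1.76 and 6.35 (median 4.29), the latter apart only within stages. Their log2 fold changes were 1.99 ± 0.40, 1.88 ± 0.34, 1.55 ± 0.29, 1.67 ± 0.29 and 1.55 ± 0.23 (SE) in that order. *Fev*, an ETS factor of serotonin neurons, had 1.66 ± 0.43 (SE; edgeR adjusted p = 0.0308), but lost its call in 8 of 12 omissions of a single library, in which it ran from 1.44 to 2.19. Among falls, *Art1*, an ADP-ribosyltransferase of muscle cell surfaces, went from between 3.09 and 13.8 CPM (median 6.46) to between 1.24 and 2.60 (median 1.81), and *Spink2*, a protease inhibitor, from between 2.04 and 4.62 (median 3.24) to between 0.541 and 1.82 (median 1.24). Neither overlapped, at log2 fold changes of -1.75 ± 0.20 and -1.30 ± 0.21 (SE) and edgeR adjusted p of 2.34e-04 and 0.00261.

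Genes that the study itself named from these libraries were counted as well, and are not independent evidence of their direction. Of its 8 contractile genes, with keratins *Krt8* and *Krt19* counted among them, 5 rose and 1 fell, and of its 11 genes of cardiac development 5 fell and 0 rose. The calls in the second list were *Epha3*, *Lyve1*, *Ramp1*, *Scn7a* and *Igfbpl1*, and the last, of the IGF binding protein family, fell from between 30.9 and 57.0 CPM (median 36.1) to between 9.39 and 39.7 (median 21.9) with overlap (log2 fold change -0.97 ± 0.19, SE; edgeR adjusted p = 0.00878). *Prox1* (-0.10 ± 0.20, SE), *Tbx3* (-0.36 ± 0.26), *Nrp2* (-0.51 ± 0.17) and *F11r* (0.35 ± 0.12) were not called. Of 5 genes it discussed beside *Nkx2-5* hypomorphs, 3 rose, *Tnni2* and *Abca4* among them. *Abca4*, a lipid transporter best known from the retina, ran from 7.28 to 13.9 CPM (median 10.9) and from 17.1 to 27.1 (median 23.8), without overlap (log2 fold change 1.03 ± 0.14, SE; edgeR adjusted p = 7.47e-04). *Slc9a3r1*, a scaffold of ion exchangers, was under the fold threshold at 0.55 ± 0.11 (SE; edgeR adjusted p = 0.00754).

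Joining the stages called genes that neither stage called by itself. Fits of a single stage with the same rules called 14 genes at E11.5 and 363 at E12.5, of which 13 and 223 were among the 395. The other 168 changed genes (42.5%), 93 that rose and 75 that fell, were called in neither, and 117 of them were apart at both stages in the direction of the change. In turn, 141 genes were called in a single stage and not in common. Among the 168, *Foxh1*, a partner of SMADs in nodal signalling, ran from 0.0657 to 0.350 CPM (median 0.127) in controls and from 0.676 to 3.20 (median 1.05) in mutants, and *Tmem221*, a membrane protein, from 0 to 0.391 (median 0.103) and from 0.823 to 2.25 (median 1.56). Both were apart in all 12 libraries, at edgeR adjusted p of 4.31e-04 and 5.74e-04. A few reads per control library make the size of such folds uncertain. At mean RPKM of 0.674 and 0.551, both genes passed the limit on mean RPKM only through the mutants, which shapes the count of rises. At higher levels, *Grb14*, an adaptor of insulin receptor signalling, went from between 40.9 and 63.0 CPM (median 46.9) to between 69.5 and 87.8 (median 74.4; log2 fold change 0.63 ± 0.10, SE; edgeR adjusted p = 0.00187), and was under the fold threshold without the second E11.5 mutant (0.56). *Ust*, a sulfotransferase of dermatan sulfate, fell and *Hmgcll1*, an enzyme of ketone body synthesis, rose, both without overlap, with log2 fold changes of -0.89 ± 0.14 and 0.93 ± 0.15 (SE).

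The difference between the stage effects was tested as well. The mutant effect differed between stages at an edgeR adjusted p of at most 0.05 for 0 of 12270 genes (0%), while 551 (4.49%) had an unadjusted p under 0.05. DESeq2 gave 41 genes, and edgeR without the third E11.5 mutant 10. Among the 395 changed genes, 30 (7.59%) had an unadjusted p under 0.05 for that difference. The lowest of those named was that of *Krt8*, whose common log2 fold change of 0.87 ± 0.19 (SE; edgeR adjusted p = 0.0159) joined stage effects that differed with an unadjusted edgeR p of 1.68e-04. *Slc4a1*, the red cell anion exchanger, had an even lower one, 1.06e-04, and its common log2 fold change of -0.62 ± 0.34 (SE) was not called (edgeR adjusted p = 0.350).

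For single genes, an exact two-sided permutation of genotype within stages has 400 assignments and a smallest p of 0.005. Genes whose libraries were apart at both stages reach it by construction, and part of the named genes were chosen for such separation. *Tnnt1*, *Stmn2* and *Igfbpl1*, whose libraries overlapped, each had an exact permutation p of 0.01, and *Alb* one of 0.06. With the sex called for each library as a further term, 427 genes were called, and 346 of the 395 were among them. Named genes that lost their call in that fit were *Fcrls*, *Fcgr3*, *Alb*, *Wnt5b* and *Gamt*.

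On chromosome X, in a further fit of 12664 genes with X and Y genes added, 15 of 438 genes tested were changed (3.42%). Of 248 genes tested within 20 megabases of *Hira* on chromosome 16, 2 were changed (0.806%), against 1.55% of 386 on all of that chromosome and 3.22% of all genes tested, a difference that was not tested.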

How the data were processed

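RNA-seq was made from hearts, with 3 libraries per stage and genotype, and all 12 libraries entered every main fit. The authors aligned paired reads to mm10 with Bowtie2 and used DESeq, per the labels and the study's methods. The counting program, annotation and use of strand are not given in the sources used here. The authors deposited gene values named RPKM, treated here as a score, since each is a whole count times a gene's length and a factor that rises with depth. Whole counts were recovered for 17827 of 19424 genes, with a largest distance from a whole number of 4.22e-10, and their group means equalled the average counts (expected counts) that the authors deposited. The other 1597 genes had no reads. The authors' fold changes and p-values were not used. The 944 genes outside the authors' comparisons, with the sex chromosomes among them, were left out of the main test. Symbols are those of the files, some of them old. Overlapping genes counted together held 0.227% of counts.

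edgeR 4.0.16 (R 4.3.3, TMM scaling, quasi-likelihood test, Benjamini-Hochberg adjustment) was fitted with stage and genotype as terms to genes whose mean RPKM, recomputed from the counts, reached 0.5. The mean was taken over all 12 libraries, so a gene low in either genotype could pass through the other. A gene was called changed where adjusted p did not exceed 0.05 and its fold reached 1.5. Alternatives were limma 3.58.1, DESeq2 1.42.0, other filters, a sex term, a replicate block and leaving out each library. The scripts were tested on simulated data. Named genes were HIRA and its partners, the 15 largest rises and falls with separated libraries, up to 5 changed genes and the most abundant gene of each list, genes the study named, the 10 lowest p and up to 10 genes called only with both stages. Results for some named genes are not reported here. Members and gene lists were chosen with earlier results of these data known.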

Additional observations from a re-analysis of the deposited data

Results flagged for a closer look

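Genes of the X chromosome were outside the main comparison. Their counts were recovered and added to the other genes in a further fit, with 438 X genes tested. Of these 438 genes, 15 were changed (3.42%, close to the 3.22% over all genes tested), 12 were with sex as a term, and 11 were in both. These 11, 6 higher and 5 lower in mutants, are listed because the main comparison did not hold them, and their share is no signal beyond that background. The log2 fold changes of those that rose were 2.14 for *Nxf7*, 1.32 for *3830403N18Rik*, 1.11 for *Xlr*, 0.86 for *Rhox5*, 0.82 for *Plac1* and 0.70 for *Tceal7*. Those that fell had -1.27 for *Srpx*, -0.79 for *Itgb1bp2*, -0.70 for *Figf*, -0.70 for *Slitrk4* and -0.65 for *Maob*. *Nxf7*, of the nuclear RNA export factor family, ran from 1.23 to 2.12 CPM (median 1.81) in controls and from 5.22 to 11.6 (median 7.17) in mutants, with no overlap, and had a log2 fold change of 2.09 with sex as a term.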

How the results depend on the processing

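The 395 changed genes (227 higher, 168 lower) became 120 (74 and 46) at a mean RPKM of at least 5, 840 (464 and 376) with no fold threshold, 42 (27 and 15) in a test against a fold of 1.5, 256 with no stage term (95 lower) and 221 (137 and 84) in limma with a pseudocount of 1. Leaving out 1 library gave 306 to 412 genes, 162 to 231 higher and 142 to 183 lower. The other alternatives gave 328 to 470 genes, among them 470 with DESeq2, and the last fit, with X and Y genes and a sex term (439), was chosen after seeing the data. A stage difference was found for 0 genes, but for 41 with DESeq2 and for 0 to 10 when 1 library was left out, the 10 being without the third E11.5 mutant. Of the 395 genes, 233 were called in every fit that left out 1 library. The 86 named changed genes kept their direction in all 2093 values under alternatives and lost their call in 224, the test against 1.5-fold aside. These alternatives include the main fit with no fold threshold, which could not lose a call. The genes were picked from the main fit and the alternatives share its libraries, so a kept direction is not independent evidence.

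Deviations of same-numbered control and mutant libraries from their group means had r from -0.0284 to 0.425. Those of different-numbered libraries had r from -0.488 to 0.234. These values do not settle whether the numbers mark pairs, and the main fit did not take them as pairs. With replicate number as a block 407 genes were changed, 359 of the 395 among them, and *Stab1* was at -0.0122.

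Genes near 0 that were not called changed sign. On the log2 scale *Ubn1* was at -0.0015 with no filter and -0.0399 with sex as a term, *Ubn2* at -0.0685 with sex and -0.0057 with no stage term, *Pf4* at 0.0858, *Mest* at -0.0259 and *B2m* at 0.0898 with sex. *Stab1* was at -0.0093 with no filter, -0.0011 at the higher RPKM limit, -0.0533 with sex, -0.0179 with no stage term and -0.0102 in limma at each pseudocount. Leaving out 1 library gave -0.0364 to 0.0458 for *Ubn1*, -0.0654 to 0.142 for *Ubn2*, -0.0662 to 0.0912 for *Myl2*, -0.140 to 0.0806 for *Stab1*, -0.465 to 0.0537 for *Pf4*, -0.102 to 0.0068 for *Pcna*, -0.0488 to 0.0873 for *Mest*, -0.0998 to 0.0964 for *B2m* and -0.136 to 0.0315 for *Mov10l1*. The cause of these changes was not tested. Depth limits the folds of genes with few reads, such as *Foxh1*, *Tmem221*, *Hcn2*, *Prph* and *Sncb*.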
